A study of Danio rerio with 12 samples.

Results

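The proteasome subunit genes of the zebrafish were taken as all genes with a non-control probe whose RefSeq accession maps to a symbol of psma, psmb, psmc, psmd, psme, psmf or psmg and a number. The rule found 56 genes on 112 of the 43603 probes. Of these, 53 genes on 106 probes were tested among 25164 genes and unnamed probes. The symbols psmb11b, psme4a and psmg4 had no probe here. Among the tested genes, 51 encode subunits, activators, an inhibitor or assembly chaperones of the proteasome. The other 2 carry such a symbol only because their products bind a subunit or a related factor: psmc3ip encodes a factor of meiotic recombination, and psme3ip1 a protein that binds the activator encoded by psme3.

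The RNA came from whole embryos of the AB wild-type strain, treated with 25 µM beclomethasone, a synthetic glucocorticoid, or with 0.1% DMSO, the solvent control, for 3 h. The 4 groups were beclomethasone at 72 hours post fertilisation (hpf), DMSO at 72 hpf, beclomethasone at 24 hpf and DMSO at 24 hpf. Each group had 3 arrays, with 1 array per sample and 1 colour per array. The labels do not say whether replicates came from separate clutches, so that p-values measure only the spread between these samples.

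The proteasome is the barrel-shaped protease that degrades proteins tagged with ubiquitin. Its 20S core has outer rings of alpha subunits and inner rings of beta subunits, some of which cut peptide bonds. The 19S cap has a ring of ATPases that unfold substrates and non-ATPase subunits that bind and remove ubiquitin. Dedicated chaperones assemble both, other activators can replace the cap, and in cells of the immune system the cutting beta subunits can be exchanged for those of the immunoproteasome.

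The scanner software called 31210 to 37401 spots well above background on 11 arrays, and no spot was saturated (0 on each array). On DMSO 24 hpf replicate 3 it called only 16764 spots, of which the dimmest had a signal of 215, against 11.8 to 19.5 elsewhere. The arrays lay on 3 slides: slide 3 held the beclomethasone arrays and DMSO replicate 3 of 72 hpf, slide 2 the other DMSO arrays of 72 hpf and beclomethasone 24 hpf replicates 2 and 3, and slide 1 the remaining arrays. Marker genes followed the labels of the scanner files: all 5 receptor targets checked (fkbp5, klf9, hsd11b2, tsc22d3 and ddit4) rose with beclomethasone at both stages. All 5 genes checked as markers of 72 hpf rose at that stage, and both genes checked as markers of 24 hpf fell, in either treatment. In the authors' deposited table of log2 values, each of the 12 columns matched the scanner array of the other treatment (correlation across probes 0.988 to 0.997, against 0.658 to 0.827 for the array of its own label). Treatment directions below use the labels of the scanner files, and under the table's labels the 11 proteasome genes called at 24 hpf and the 6 called at 72 hpf take the opposite sign.

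Most proteasome genes had lower RNA levels at 72 hpf than at 24 hpf. A level is log2 of the processed signal minus the array's 75th percentile, and a gene was called where limma's p, adjusted over all genes and probes tested, was below 0.05. Each gene is represented by its brightest probe. In beclomethasone 39 of 53 genes fell, 3 rose and 11 were not called, where 33.7% of all features fell and 33.8% rose. In DMSO 37 of 53 fell, 4 rose and 12 were not called, where 36.6% of all features fell and 29.3% rose. The median log2 fold change of the proteasome genes was -0.45 in beclomethasone and -0.42 in DMSO, against 0.07 and -0.10 for all features. The stage comparisons of the 2 treatments share no array, and 36 of 53 genes fell in both, where 29.7% of all features did. Within either treatment no slide held arrays of both stages. Stage and slide therefore cannot be told apart within a treatment, and a slide block separates them only through arrays of the other treatment. Since the samples are whole embryos, fewer cells with a high level and less RNA per cell cannot be told apart.

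These medians depend on how the arrays are scaled. With each array centred on its median, the proteasome genes had -0.74 in beclomethasone and -0.75 in DMSO, against -0.22 and -0.43 for all features. With quantile normalization they had -0.35 and -0.28, against -0.10 and -0.05. After normexp background correction they had -0.42 and -0.37, against -0.09 and -0.32, so that in DMSO the distance from all features was small. With slide as a block 22 genes fell in beclomethasone and 23 in DMSO. With the dimmest in place of the brightest probe 23 fell in beclomethasone and 15 in DMSO. The shares of all features that fell with the slide block or the dimmest probe are not given here.

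**Figure D1:**
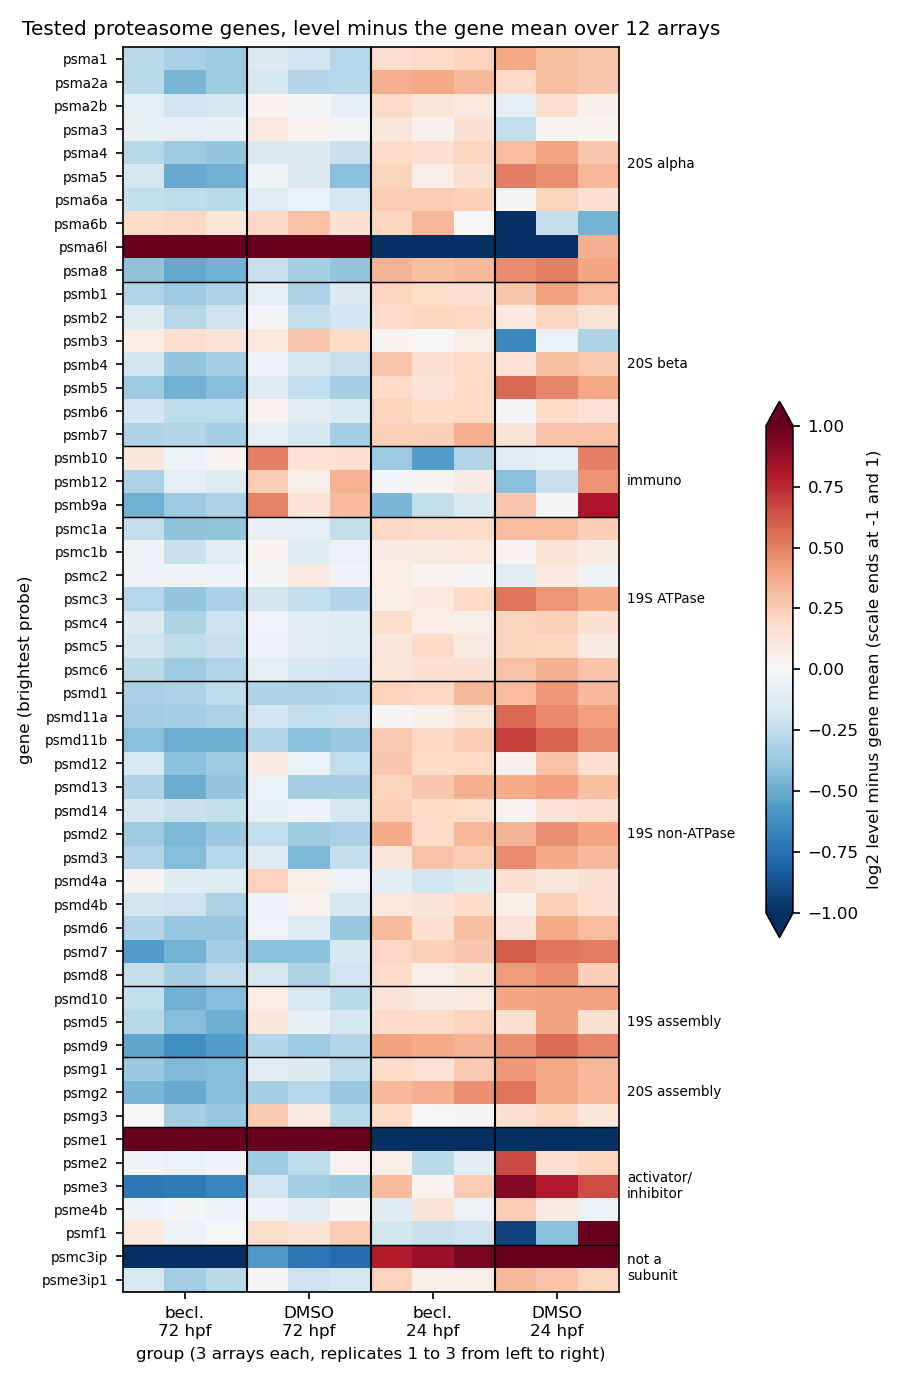
Levels of the 53 tested proteasome genes on the 12 arrays, shown as the log2 level of the brightest probe minus the gene's mean over all arrays, grouped by role, with the colour scale ending at -1 and 1. Most rows are blue at 72 hpf and red at 24 hpf, and psma6l and psme1 run the other way.

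In the alpha ring of the core 7 of 10 genes fell in beclomethasone and 6 of 10 in DMSO. The gene psma8 changed by -0.78 ± 0.06 in beclomethasone and -0.77 ± 0.06 in DMSO (log2 fold change ± SE, 3 arrays per group). From brightest to dimmest its 3 probes were at -0.77, -0.63 and 0.21 in DMSO, the last not called. The alpha ring gene psma6l went the other way. Its levels in beclomethasone were -2.24, -2.08 and -2.20 at 72 hpf, against -6.57, -5.82 and -6.18 at 24 hpf. In DMSO they were -1.97, -1.73 and -2.34 at 72 hpf, against -6.07, -6.03 and -3.54 at 24 hpf. All 6 arrays of 72 hpf were above all 6 of 24 hpf, and psma6l was well above background on no array of 24 hpf. Its rise was therefore at least 11.5-fold in beclomethasone (limma adjusted p = 1.67e-04) and at least 4.35-fold in DMSO (limma adjusted p = 7.53e-04). The gene entered the tests only through the groups of 72 hpf, where it is high, so that these p-values and its place among the genes that rose are no support of their own.

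The gene psma6b of this ring was at -0.01 ± 0.17 in beclomethasone (limma adjusted p = 0.955) and rose in DMSO (0.79 ± 0.17, limma adjusted p = 0.00243). Its levels in beclomethasone were 1.35, 1.38 and 1.30 at 72 hpf, against 1.39, 1.5 and 1.17 at 24 hpf. The levels in DMSO were 1.38, 1.46 and 1.32 at 72 hpf, against 0.16, 0.94 and 0.70 at 24 hpf. The DMSO arrays of 24 hpf stood below the other 9, with replicate 1 lowest. With slide as a block the change in DMSO was 0.87 and was not called (limma adjusted p = 0.0874).

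In the beta ring 6 of 7 genes fell in either treatment. The gene psmb5, for the subunit that cuts after hydrophobic residues, had levels in beclomethasone of 3.93, 3.81 and 3.86 at 72 hpf, against 4.49, 4.41 and 4.49 at 24 hpf (-0.60 ± 0.07, limma adjusted p = 6.10e-05). In DMSO its levels were 4.16, 4.04 and 3.95 at 72 hpf, against 4.85, 4.78 and 4.68 at 24 hpf (-0.72 ± 0.07, limma adjusted p = 1.52e-05). The groups of the stages did not overlap in either treatment, but the dimmest probe of psmb5 was at 0.47 in DMSO. The genes psmb6 and psmb7 for the other cutting subunits fell as well, by 0.44 and 0.59 in beclomethasone and by 0.18 and 0.43 in DMSO. In DMSO the groups of psmb6 overlapped. From brightest to dimmest the 5 probes of psmb7 were at -0.43, -0.58, -0.57, 0.22 and 0.40 in DMSO, and only the negative ones were called. The exception in this ring was psmb3, named here after its values were seen. It was at 0.10 ± 0.12 in beclomethasone and rose by 0.52 ± 0.12 in DMSO.

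In the ATPase ring 6 of 7 genes fell in beclomethasone and 5 of 7 in DMSO. The gene psmc3 had levels in beclomethasone of 3.07, 2.97 and 3.03 at 72 hpf, against 3.43, 3.46 and 3.56 at 24 hpf (-0.45 ± 0.07, limma adjusted p = 2.08e-04). In DMSO it had 3.17, 3.11 and 3.07 at 72 hpf, against 3.89, 3.80 and 3.73 at 24 hpf (-0.69 ± 0.07, limma adjusted p = 9.85e-06), the largest change of this ring. No array of 72 hpf reached one of 24 hpf, but the other probe of psmc3 was at 0.21 in beclomethasone and 0.72 in DMSO. On DMSO 24 hpf replicate 3 this other probe was below the lowest level well above background. The gene psmc2 of the same ring was at -0.08 in beclomethasone and 0.03 in DMSO and was not called.

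Among the non-ATPase subunits of the cap 12 of 13 genes fell in beclomethasone and 11 of 13 in DMSO. The paralogues psmd11a and psmd11b encode a subunit of the lid, the part of the cap that holds the deubiquitinase. For psmd11b the levels in beclomethasone were 1.09, 1.03 and 1.03 at 72 hpf, against 1.78, 1.71 and 1.76 at 24 hpf (-0.70 ± 0.07, limma adjusted p = 1.03e-05). In DMSO psmd11b had 1.22, 1.1 and 1.14 at 72 hpf, against 2.20, 2.09 and 1.98 at 24 hpf (-0.94 ± 0.07, limma adjusted p = 1.27e-06). In both treatments all arrays of 72 hpf were below all of 24 hpf. The deubiquitinase gene psmd14 fell by 0.42 in beclomethasone and by 0.21 in DMSO. The ubiquitin receptor gene psmd4a was not called at 0.08 in beclomethasone and -0.07 in DMSO. At its brightest probe the paralogue psmd4b fell by 0.38 in beclomethasone and by 0.21 in DMSO. The other probe of psmd4b was not called in beclomethasone (-0.10) and rose in DMSO (0.61, limma adjusted p = 0.00351).

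All 3 chaperones of the cap's base and 2 of 3 chaperones of the core fell in both treatments at their brightest probe. The other probe of psmd5 rose in DMSO (0.96, limma adjusted p = 0.00322) and was not called in beclomethasone (-0.53). On DMSO 24 hpf replicate 3 this probe was below the lowest level well above background. The other probe of psmg1 rose in beclomethasone (0.69, limma adjusted p = 0.0475) and was not called in DMSO (0.26). The base chaperone gene psmd9 had 1.51, 1.42 and 1.48 in beclomethasone at 72 hpf, against 2.43, 2.40 and 2.37 at 24 hpf (-0.93 ± 0.06, limma adjusted p = 3.52e-07). In DMSO it had 1.73, 1.67 and 1.73 at 72 hpf, against 2.49, 2.59 and 2.52 at 24 hpf (-0.82 ± 0.06, limma adjusted p = 8.30e-07). The core chaperone gene psmg2 had 0.54, 0.49 and 0.57 in beclomethasone at 72 hpf, against 1.32, 1.35 and 1.45 at 24 hpf (-0.84 ± 0.07, limma adjusted p = 3.46e-06). In DMSO its change was -0.75 ± 0.07. For both genes the stages were separated by more than the spread within any group.

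The activators of the core split. The gene psme1 encodes a subunit of the activator PA28, which interferon induces in mammals, and it rose in both treatments. Its levels in beclomethasone were -1.21, -1.18 and -1.24 at 72 hpf, against -4.93, -4.64 and -4.64 at 24 hpf (3.53 ± 0.31, limma adjusted p = 4.83e-06). In DMSO they were -0.88, -0.57 and -1.01 at 72 hpf, against -5.38, -4.98 and -3.91 at 24 hpf (3.93 ± 0.31, limma adjusted p = 2.12e-06), with 1 of the 3 arrays of 24 hpf well above background. The rise was 11.5-fold in beclomethasone, and in both treatments all arrays of 72 hpf lay above all of 24 hpf.

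The gene of its partner subunit, psme2, did not share this rise: it was at 0.06 ± 0.15 in beclomethasone (limma adjusted p = 0.749) and fell by 0.54 ± 0.15 in DMSO (limma adjusted p = 0.00970). The gene psme3, for the related activator of the nucleus, fell. Its levels in beclomethasone were 2.07, 2.08 and 2.13 at 72 hpf, against 3.10, 2.82 and 3.04 at 24 hpf (-0.90 ± 0.10, limma adjusted p = 2.13e-05). In DMSO they were 2.60, 2.44 and 2.42 at 72 hpf, against 3.70, 3.59 and 3.44 at 24 hpf (-1.09 ± 0.10, limma adjusted p = 4.81e-06). The activator gene psme4b and the inhibitor gene psmf1 were not called in either treatment, with values between -0.14 and 0.22.

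The recombination factor gene psmc3ip had the largest fall of all genes found by the rule, and it is not a subunit gene. Its levels in beclomethasone were -0.94, -0.99 and -0.95 at 72 hpf, against 1.22, 1.28 and 1.37 at 24 hpf (-2.25 ± 0.08, limma adjusted p = 1.08e-08). In DMSO they were -0.14, -0.31 and -0.35 at 72 hpf, against 1.74, 1.61 and 1.53 at 24 hpf (-1.90 ± 0.08, limma adjusted p = 3.31e-08). Without psmc3ip and psme3ip1, 37 of 51 genes fell in beclomethasone and 35 of 51 in DMSO.

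**Figure D2:**
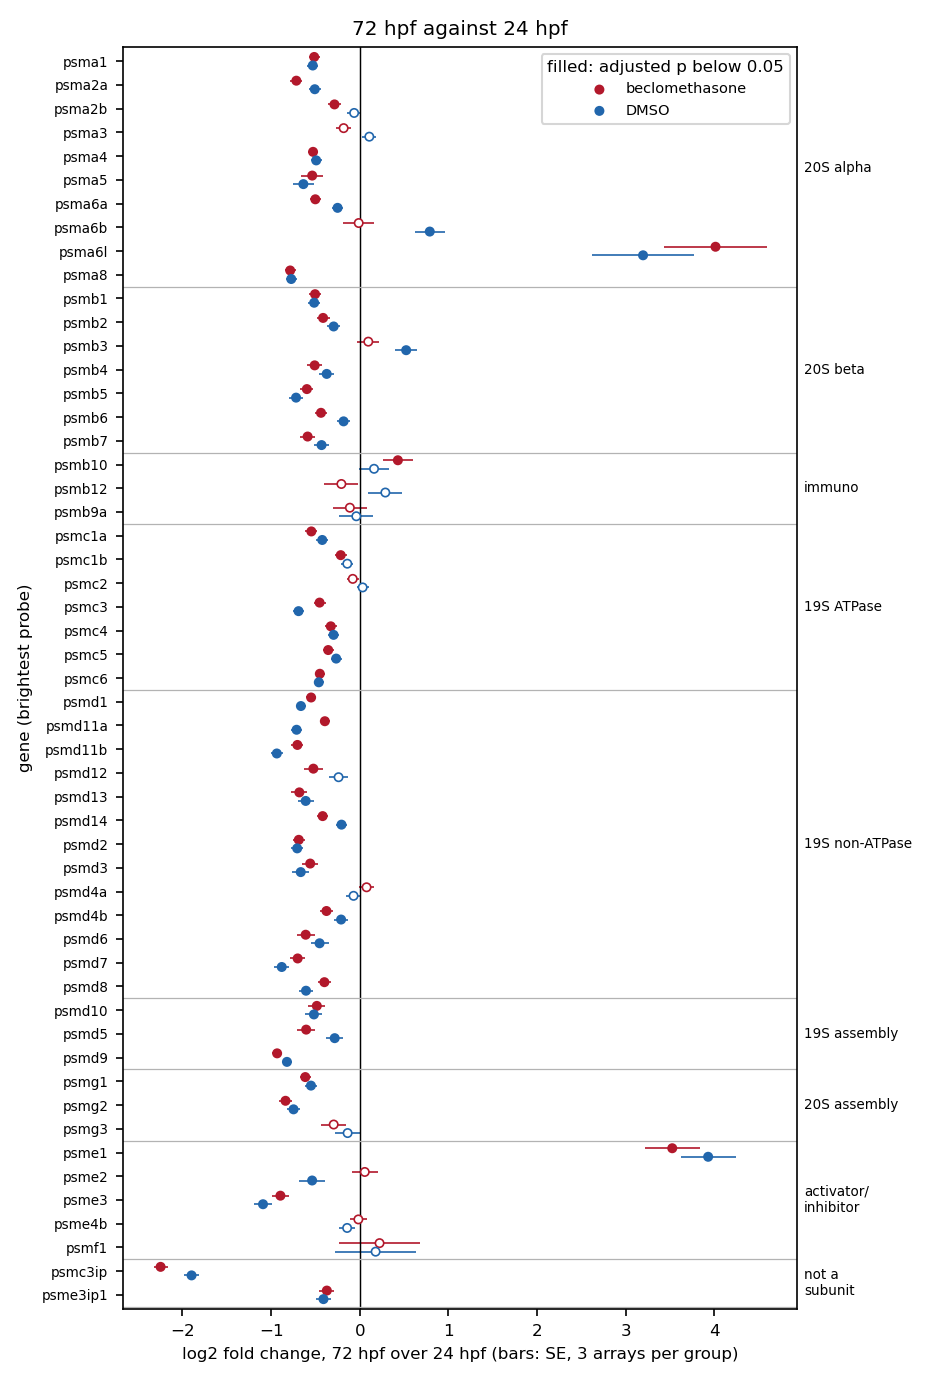
Log2 fold change of 72 hpf over 24 hpf for each tested proteasome gene in beclomethasone and in DMSO, with the SE as bars and filled symbols for an adjusted p below 0.05. Most genes lie left of 0 in both treatments, and psma6l and psme1 lie right of 3 in both.

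At the brightest probe of each gene, beclomethasone against DMSO at 24 hpf gave small changes of single proteasome genes, mostly downward. Of the 53 other probes of these genes, described below, 21 rose and 5 fell, where 18.8% of all such probes rose and 7.89% fell. At the brightest probe 10 of 53 genes fell, or 18.9%, where 10.1% of all features fell. Without psmc3ip and psme3ip1 it was 9 of 51, or 17.6%. The alpha ring gene psma6b was the 1 gene that rose, where 9.05% of all features rose, and 42 of the 53 were not called. The median log2 fold change was -0.10, against -0.12 for all features, and with quantile normalization -0.09 against 0.00. With only the arrays of 24 hpf in the fit, 1 gene was called, and leaving out beclomethasone 24 hpf replicate 1 or 2 left 4 calls. Leaving out beclomethasone 24 hpf replicate 3 or 72 hpf replicate 2 left 7, and leaving out DMSO 24 hpf replicate 1 left 5. The falls comprised 5 of 13 non-ATPase genes (psmd11a, psmd11b, psmd7, psmd4a and psmd8), psme3, psmb5, psmc3, psmb9a and psmc3ip. The other probe of psmd7 was at 0.12 and was not called (limma adjusted p = 0.385). None of the 6 assembly chaperones tested was called at its brightest probe (0 of 3 in each group). The other probes of psmd5 (1.17, limma adjusted p = 0.00625) and psmg2 (0.32, limma adjusted p = 0.0191) rose. Those of psmd10 (-0.06) and psmg1 (-0.72) were not called.

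The largest fall among subunits and activators measured on all arrays was that of psme3, with levels of 3.10, 2.82 and 3.04 in beclomethasone, against 3.70, 3.59 and 3.44 in DMSO (-0.59 ± 0.10, limma adjusted p = 0.00398). All beclomethasone arrays were below all DMSO arrays. With slide as a block the change was -0.47 and was not called (limma adjusted p = 0.0940).

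The lid gene psmd11a had levels of 2.56, 2.60 and 2.67 in beclomethasone, against 3.12, 3.02 and 2.97 in DMSO (-0.43 ± 0.06, limma adjusted p = 0.00200). The groups did not overlap. This fall was called under 23 of 24 alternative settings. The exception was the authors' table with the treatment labels it carries. With slide as a block psmd11a was at -0.48 and was the only called proteasome gene. At 24 hpf that block compares the treatments only on slide 1, which holds 1 beclomethasone array. The gene has no other tested probe, so that the median over probes and the dimmest probe reuse these same values. Those settings could not change its fall and are no further check of it. The paralogue psmd11b fell by 0.34 ± 0.07 (limma adjusted p = 0.00987), with levels of 1.78, 1.71 and 1.76 in beclomethasone, against 2.20, 2.09 and 1.98 in DMSO. Its other probe was at -0.05 and was not called (limma adjusted p = 0.516).

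The core gene psmb5 fell by 0.31 ± 0.07 (limma adjusted p = 0.0206), the ATPase gene psmc3 by 0.33 ± 0.07 (limma adjusted p = 0.0105) and psmc3ip by 0.34 ± 0.08 (limma adjusted p = 0.0173). In each of these genes the beclomethasone arrays were below the DMSO arrays of the same stage. The rise of psma6b was 0.75 ± 0.17 (limma adjusted p = 0.0156), with levels of 1.39, 1.5 and 1.17 in beclomethasone, against 0.16, 0.94 and 0.70 in DMSO. With slide as a block psma6b was at 0.79 and was not called (limma adjusted p = 0.141). On slide 1, which holds 1 beclomethasone and 3 DMSO arrays of this stage, the median over the 53 genes was -0.11, and 36 of them were lower in beclomethasone. The share of all features lower on this slide is not given here. Over all arrays of 24 hpf the median of all features was -0.12.

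At 72 hpf, 6 of 53 genes fell with beclomethasone, or 11.3%, where 5.44% of all features fell. Without psmc3ip and psme3ip1 it was 5 of 51, or 9.8%. No gene rose (0 of 53 called with limma), where 4.8% of all features rose. The falls were those of psmb9a, psmc3ip, psme3, the base chaperones psmd5 (-0.36) and psmd9, and the core chaperone psmg1 (-0.25). The changes of most members were small and of the same sign: 50 of 53 estimates were below 0, with a median of -0.14 against 0.00 for all features. On slide 3, with 3 beclomethasone arrays and 1 DMSO array, the median was -0.08 and 46 of 53 genes were lower in beclomethasone. The shares of all features below 0, over all arrays of this stage or on this slide, are not given here.

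The gene psme3 had 2.07, 2.08 and 2.13 in beclomethasone, against 2.60, 2.44 and 2.42 in DMSO (-0.39 ± 0.10, limma adjusted p = 0.0306). For psmc3ip the levels were -0.94, -0.99 and -0.95 in beclomethasone, against -0.14, -0.31 and -0.35 in DMSO (-0.69 ± 0.08, limma adjusted p = 5.33e-04). For psmd9 they were 1.51, 1.42 and 1.48 in beclomethasone, against 1.73, 1.67 and 1.73 in DMSO (-0.24 ± 0.06, limma adjusted p = 0.0247). In all 3 genes the groups did not overlap.

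Apart from psmc3ip, the calls at 72 hpf had limma adjusted p-values of 0.0247 to 0.0495. The gene psmc3ip was called under 23 of 24 alternatives, the exception being the authors' table as labelled. Among these, leaving out an array of 24 hpf could not change the estimate, only the spread that the test uses. With slide as a block psmc3ip was the only call of this stage (-0.61), so that no subunit gene was called. At 72 hpf that block compares the treatments only on slide 3, which holds 1 DMSO array. Arrays of the same replicate number deviated together at 72 hpf, and with a replicate block 4 genes were called. With that replicate block set within each stage only psmc3ip was (1 of 53), which is not a subunit gene. Leaving out any single array of 72 hpf other than DMSO replicate 3 left 1 or 2 calls, and leaving out any single beclomethasone array of 24 hpf left 3.

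The treatment effect at 72 hpf minus that at 24 hpf was not called for any proteasome gene (0 of 53 with limma, 12 at an unadjusted p below 0.05), where 6.3% of all features were called. The smallest adjusted p belonged to psmd11a, at -0.11 ± 0.06 at 72 hpf and -0.43 ± 0.06 at 24 hpf (difference 0.32 ± 0.09, limma adjusted p = 0.0576). After normexp 8 genes were called, without DMSO 24 hpf replicate 3 it was 4 genes and without DMSO 24 hpf replicate 2 it was 2. The shares of all features called in these fits are not given here. Of the 3 genes called at both stages, psme3, psmb9a and psmc3ip, the difference was 0.20 ± 0.14, -0.07 ± 0.27 and -0.35 ± 0.11.

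**Figure D3:**
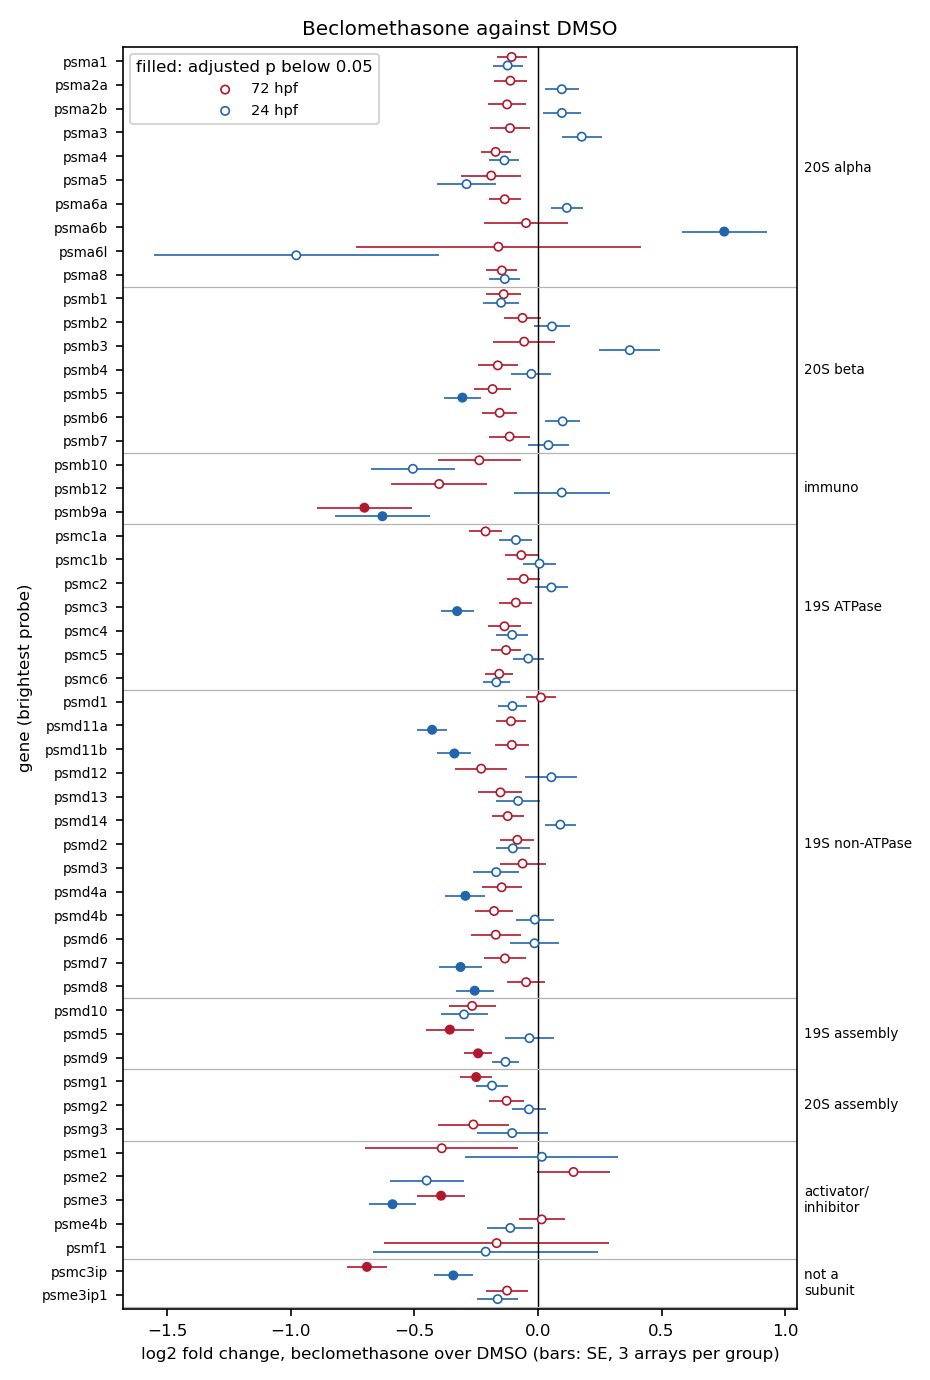
Log2 fold change of beclomethasone over DMSO for each tested proteasome gene at 72 and 24 hpf, with the SE as bars and filled symbols for an adjusted p below 0.05. At 72 hpf 50 of 53 points lie left of 0, and at 24 hpf the points spread to both sides.

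**Figure D4:**
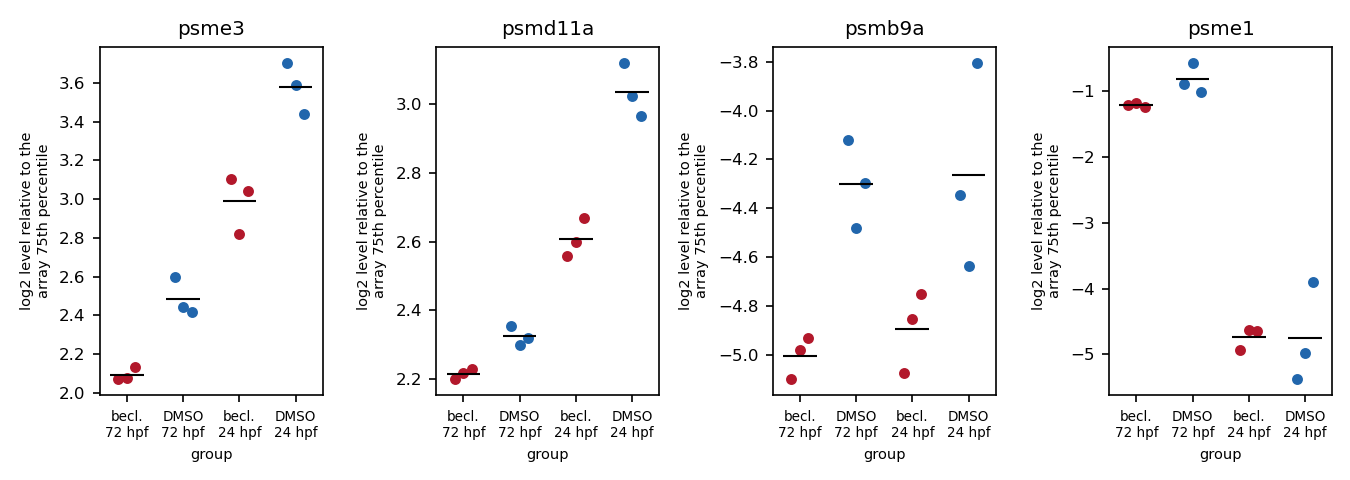
Levels of psme3, psmd11a, psmb9a and psme1 on every array, with the group mean as a line. For psme3 both beclomethasone groups lie below the DMSO group of the same stage, and for psme1 both groups of 72 hpf lie above both of 24 hpf.

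Genes of the immunoproteasome and of other replacement beta subunits were dim. The genes psmb8a, psmb11a and psmb13a were well above background on no array (0 of 3 in each group) and were not tested. In the RefSeq annotation of the assembly GRCz12tu, psmb13a, psmb8a, psmb12 and psmb9a are direct neighbours in that order. The tested members were psmb9a, psmb10 and psmb12. None of them fell between the stages.

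For psmb9a, whose mammalian counterpart encodes a cutting subunit of the immunoproteasome, the levels at 72 hpf were -5.10, -4.98 and -4.93 in beclomethasone, against -4.12, -4.48 and -4.30 in DMSO (-0.70 ± 0.19, limma adjusted p = 0.0482). At 24 hpf they were -5.07, -4.85 and -4.75 in beclomethasone, against -4.35, -4.64 and -3.80 in DMSO (-0.63 ± 0.19, limma adjusted p = 0.0479). Beclomethasone arrays were lower than DMSO arrays at both stages, without overlap. At 24 hpf psmb9a was well above background on 2 of 3 DMSO arrays. Without DMSO replicate 3 the change there was -0.40 and not called, and with quantile normalization it was 0.23. Of 24 alternatives 5 kept its call at 72 hpf and 4 at 24 hpf.

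For psmb10, another cutting subunit of the immunoproteasome in mammals, the levels in beclomethasone were -1.84, -2.0 and -1.92 at 72 hpf, against -2.31, -2.50 and -2.24 at 24 hpf (0.43 ± 0.17, limma adjusted p = 0.0453), a rise that 16 of 23 alternatives did not keep. In DMSO they were -1.45, -1.81 and -1.79 at 72 hpf, against -2.05, -2.04 and -1.45 at 24 hpf (0.16 ± 0.17, limma adjusted p = 0.424). These levels of psmb10 are those of the brightest of its 3 tested probes. Its dimmest probe rose between the stages in beclomethasone (0.64, limma adjusted p = 0.00709) and in DMSO (0.999, limma adjusted p = 4.52e-04). On DMSO 24 hpf replicate 3 that probe was at -3.85, below the lowest level well above background of this array (-1.60). The remaining probe was not called in beclomethasone (0.36) or in DMSO (-0.53). The gene psmb12 was not called in any comparison, with levels of -4.64, -4.41 and -4.45 in beclomethasone and -4.07, -4.26 and -3.97 in DMSO at 72 hpf, and of -4.34, -4.29 and -4.23 in beclomethasone and -4.74, -4.55 and -3.87 in DMSO at 24 hpf.

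Leukocytes are a source of immunoproteasome RNA in a whole embryo, and 8 leukocyte markers (of 10 listed) were tested. Their summed signal, each as a multiple of the array's 75th percentile, was 4.66 to 4.87 in beclomethasone and 5.30 to 6.14 in DMSO at 72 hpf. At 24 hpf it was 3.47 to 3.76 in beclomethasone and 3.08 to 3.32 in DMSO. At 72 hpf 0 rose and 2 fell with beclomethasone, where 4.8% of all features rose and 5.44% fell. At 24 hpf 3 rose and 0 fell, where 9.05% of all features rose and 10.1% fell. The 5 tested markers of lymphocytes and the thymus summed to 0.291 to 0.338 in beclomethasone and 0.184 to 0.301 in DMSO at 72 hpf, and to 0.209 to 0.268 in beclomethasone and 0.314 to 0.424 in DMSO at 24 hpf. None of them was called with the treatment (0 of 5 at each stage), with SEs from 0.22 (rag2) to 0.61 (ikzf1). These sums are of dim genes. On DMSO 24 hpf replicate 3 the lowest level well above background was -1.60 (log2), and cd4-1 was at -2.94. The part of these cells in the values of psmb9a was not tested. Of 15 tested genes of interferon signalling and antigen presentation, 0 rose and 1 fell at 72 hpf and 1 rose and 1 fell at 24 hpf with beclomethasone. Between the stages 6 rose and 2 fell in each treatment. Of all features 33.8% rose and 33.7% fell in beclomethasone, and 29.3% rose and 36.6% fell in DMSO.

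The direction at 24 hpf depended on the probe. Of the tested genes 34 have at least 2 tested probes, and 53 tested probes are not the brightest of their gene. Of these 53 probes 21 rose with beclomethasone at 24 hpf, 5 fell and 27 were not called, where 18.8% of all such probes rose and 7.89% fell. In 23 of the 34 genes a dimmer probe had the opposite sign of the brightest one, where 42.3% of the 6927 genes with several tested probes had such a probe. In 15 of the 34 that dimmer probe was called, where this held for 8.62% of all such genes. Both probes were called in 2 genes, psmb5 and psmc3, where this held for 1.18%. No level of a probe is set against that of another here, only the changes of each. Probe positions within the transcripts were not used here.

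The brightest probe of psmb5 fell by 0.31, as given above. Its dimmest probe had 1.15, 1.05 and 0.86 in beclomethasone, against 0.00, 0.75 and 0.49 in DMSO (0.60 ± 0.16, limma adjusted p = 0.0288). For this probe all beclomethasone arrays were above all DMSO arrays, the reverse of the brightest probe.

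The brightest probe of psmc3 fell by 0.33, while its other probe had -1.16, -1.07 and -1.12 in beclomethasone, against -1.88, -1.31 and -1.76 in DMSO (0.53 ± 0.15, limma adjusted p = 0.0307). In the same way the groups were separated with opposite order at the 2 probes. The base chaperone gene psmd5 was at -0.03 at its brightest probe and at 1.17 ± 0.22 at its other one (limma adjusted p = 0.00625). That probe had -2.04, -2.12 and -2.28 in beclomethasone, against -3.55, -2.69 and -3.73 in DMSO. On DMSO 24 hpf replicate 3 the lowest level well above background was -1.60. The values there of this probe (-3.73) and of the other probe of psmc3 (-1.76) were below it.

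Genes with more probes showed the same within 1 gene. For psmd3, a subunit of the lid, the 4 probes from brightest to dimmest changed by -0.17, -0.18, 0.36 and 0.83, and the last 2 were called. For psmb7 the 5 probes changed by 0.04, -0.06, -0.05, 0.53 and 0.67, and again the last 2 were called. These 2 genes and psmd5 are named after their values were seen, as are psmd4a and psma1 in this context. At the dimmest of 3 probes of psma1 the levels were 1.79, 1.58 and 1.62 in beclomethasone, against 0.22, 1.21 and 1.09 in DMSO (0.82 ± 0.21), and its brightest probe was at -0.12 ± 0.06.

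In other genes the direction did not depend on the probe, although the size of the change and the call could. All 4 probes of psme3 were lower in beclomethasone at 24 hpf (-0.59, -0.55, -0.29 and -0.20, the first 3 called), and all 4 at 72 hpf (-0.39, -0.27, -0.25 and -0.20, the first 2 called). Both probes of psmc3ip fell at 24 hpf (-0.34 and -0.40) and at 72 hpf (-0.69 and -0.74). All 3 probes of psmd4a fell at 24 hpf (-0.29, -0.38 and -0.36). The genes psmd11a, psma6b, psmb9a and psmb3 have 1 tested probe each.

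The gap between probes was tested directly as the dimmest minus the brightest probe of a gene, over the 6927 genes with several tested probes. With beclomethasone at 24 hpf the dimmest probe gained on the brightest in 23 of 34 proteasome genes, where this held for 20.5% of all genes. The median gain was 0.46 in proteasome genes and 0.08 over all genes. At 72 hpf the gap changed in 0 of 34 proteasome genes, where 0.0289% of all genes changed, and the median was -0.01. Between the stages the dimmest probe gained in 4 of 34 genes in beclomethasone, where 11.7% of all genes did, and in 27 of 34 in DMSO, where 32.2% did. The median gains were 0.20 and 0.81, against 0.11 and 0.15 over all genes.

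The comparison at 24 hpf and the stage comparison in DMSO share the DMSO arrays of 24 hpf, and the value of the dimmest minus the brightest probe was lowest on these. Relative to each gene's mean over 12 arrays, the median gap of the 34 genes was 0.26, 0.27 and 0.25 in beclomethasone and 0.12, 0.26 and 0.22 in DMSO at 72 hpf. At 24 hpf it was 0.06, 0.07 and -0.05 in beclomethasone and -0.73, -0.31 and -0.41 in DMSO. The 3 DMSO arrays of 24 hpf stood apart from the other 9, with replicate 1 lowest. In the other 6893 genes the same arrays had -0.27, -0.13 and -0.03. The single probes of psma6b and psmb3 were lowest on these 3 arrays as well. The cause of the gap was not tested.

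**Figure D5:**
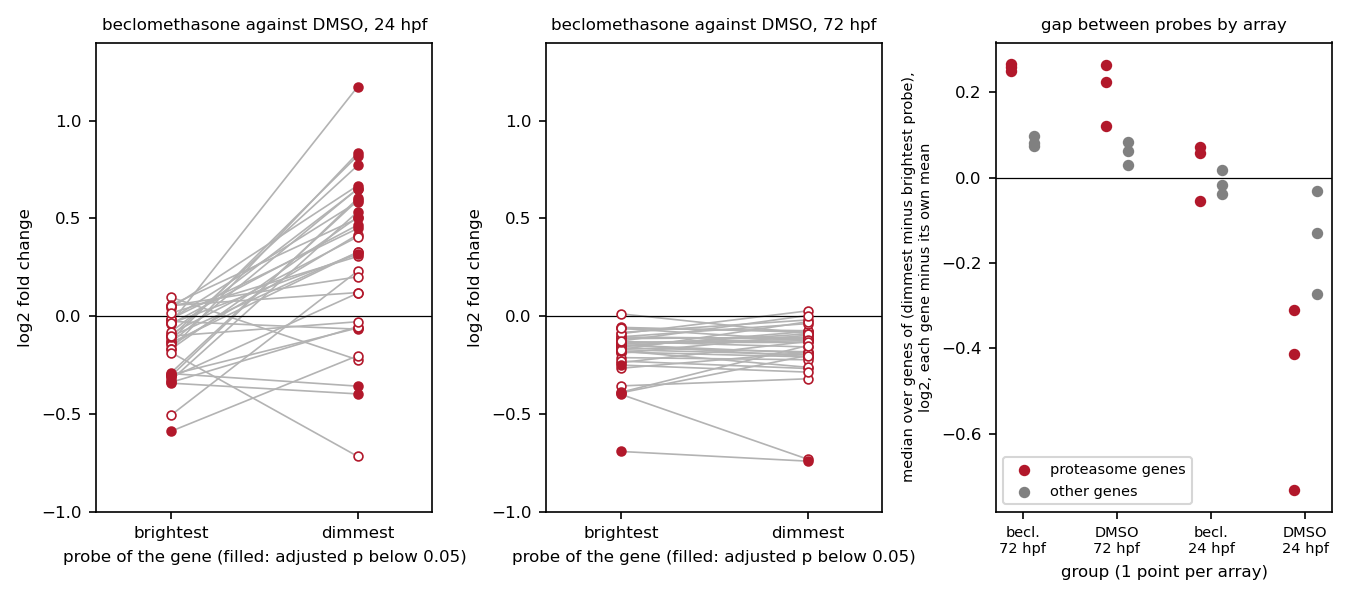
The left and middle panels show the log2 fold change of beclomethasone over DMSO at the brightest and the dimmest tested probe of 34 proteasome genes at 24 and 72 hpf, with filled symbols for an adjusted p below 0.05, and the right panel shows per array the median over genes of the dimmest minus the brightest probe (log2), each gene relative to its own mean. At 24 hpf most lines run upward, at 72 hpf most are level, and in the right panel the 3 DMSO arrays of 24 hpf lie lowest.

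The stage comparison depended on the probe in DMSO. Of the 53 dimmer probes 17 rose and 17 fell in DMSO, where 32.5% of all such probes rose and 35.0% fell. In beclomethasone 3 rose and 29 fell, where 30.8% rose and 37.1% fell. In beclomethasone 3 of 34 genes had a dimmer probe of the opposite sign and in 1 of them both probes were called, where 16.4% and 2.01% of all such genes did. In DMSO it was 22 genes and 11, where 24.7% and 5.8% did. Both comparisons gave a majority of falls at the brightest probe, and the comparison in beclomethasone did so at the dimmer probes too. With the dimmest probe standing for each gene, 3 genes rose and 23 fell in beclomethasone, and 15 rose and 15 fell in DMSO.

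Genes that work with the proteasome were listed by function. Of 14 tested proteasome partners, 2 rose and 1 fell with beclomethasone at 72 hpf, where 4.8% of all features rose and 5.44% fell. At 24 hpf 0 rose and 5 fell, where 9.05% of all features rose and 10.1% fell. The risers at 72 hpf were the paralogues zfand5a and zfand5b, whose mammalian counterpart encodes a zinc finger protein that binds the proteasome and raises its activity. The gene zfand5a had 4.35, 4.24 and 4.30 in beclomethasone, against 2.69, 2.55 and 2.74 in DMSO (1.63 ± 0.07, limma adjusted p = 2.07e-06). At 24 hpf it had 2.90, 3.04 and 2.90 in beclomethasone, against 2.88, 2.80 and 2.78 in DMSO (0.13 ± 0.07, limma adjusted p = 0.241). The difference between the stages was called (1.5 ± 0.10, limma adjusted p = 1.76e-04). The other probe of zfand5a rose at both stages, by 1.75 at 72 hpf and by 0.55 at 24 hpf (limma adjusted p = 0.00971), and its difference was called too (1.19). The gene zfand5b rose by 0.69 ± 0.08 at 72 hpf and was at -0.10 ± 0.08 at 24 hpf. Its other probes rose at 72 hpf (0.89 and 0.81), and at 24 hpf they were at -0.11, not called, and at 0.67, called.

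The gene usp14, for a deubiquitinase bound to the cap, fell by 0.20 ± 0.05 at 72 hpf and by 0.21 ± 0.05 at 24 hpf. Its other probes were not called, at -0.14 and -0.15 at 72 hpf and at 0.01 and 0.32 at 24 hpf. The other falls at 24 hpf were those of the proteasome scaffold gene ecpas (-0.68), the ubiquitin shuttle genes rad23ab (-0.54) and ubqln4 (-0.34), and ddi2 (-0.22), for a protease that in mammals activates the transcription factor that restores proteasome levels. All 4 probes of ecpas were negative at 24 hpf, 2 of them called, and the dimmest of 5 probes of ubqln4 was at 0.29 and not called. Between the stages 9 of 14 partners fell and 2 rose in beclomethasone, where 33.7% of all features fell and 33.8% rose. In DMSO 12 fell and 0 rose, where 36.6% of all features fell and 29.3% rose. The falls in both treatments included akirin2, needed for import of proteasomes into the nucleus in human cells, at -1.05 in beclomethasone and -1.22 in DMSO. The dimmest of its 4 probes was at -0.54 in beclomethasone and, not called, at 0.42 in DMSO.

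Another list was drawn up around the response that restores proteasome levels. Of its 9 tested genes 1 rose and 0 fell with beclomethasone at 72 hpf, where 4.8% of all features rose and 5.44% fell. At 24 hpf 1 rose and 1 fell, where 9.05% of all features rose and 10.1% fell. The riser at both stages was nfe2l2a, which encodes the oxidative stress factor Nrf2, at 0.98 ± 0.13 at 72 hpf (limma adjusted p = 0.00110) and 0.84 ± 0.13 at 24 hpf (limma adjusted p = 0.00287). Its other probe rose at 72 hpf (0.79) and was not called at 24 hpf (0.22, limma adjusted p = 0.260). The gene that fell at 24 hpf was hspa5 (-0.42), for a chaperone of the endoplasmic reticulum rather than a factor of that response. This depended on the probe: of its 6 probes, from brightest to dimmest, the changes were -0.42, -0.44, 0.06, 0.28, -0.39 and 0.34, and the 3 negative ones were called. The listed transcription factor gene nfe2l1a was not called with the treatment, at 0.92 ± 0.82 at 72 hpf and -1.64 ± 0.82 at 24 hpf. Between the stages 6 of 9 rose and 0 fell in beclomethasone, where 33.8% of all features rose and 33.7% fell. In DMSO 5 rose and 0 fell, where 29.3% of all features rose and 36.6% fell. The gene nfe2l1a rose in beclomethasone (3.26 ± 0.82, limma adjusted p = 0.00580) and was not called in DMSO (0.70 ± 0.82).

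Of 10 tested genes of ubiquitin and its conjugation, 0 rose and 0 fell with beclomethasone at 72 hpf, where 4.8% of all features rose and 5.44% fell. At 24 hpf 0 rose and 2 fell, where 9.05% of all features rose and 10.1% fell. The falls were those of uba1 (-0.41), for the enzyme that activates ubiquitin, and the conjugating enzyme gene ube2na (-0.44). All 4 probes of uba1 were negative, but the other probe of ube2na was at 0.15 and was not called. Between the stages 1 rose and 5 fell in beclomethasone, where 33.8% of all features rose and 33.7% fell. In DMSO 1 rose and 6 fell, where 29.3% of all features rose and 36.6% fell. The gene uba1 fell by 0.67 in beclomethasone and by 0.99 in DMSO. For ube2na the brightest probe fell in DMSO (-0.49) and the other one rose (0.34).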

How the data were processed

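The scanner files hold spot intensity values that the authors extracted with Agilent Feature Extraction 10.7.1.1, per the file headers: the processed intensity is background-subtracted, detrended within the array and not normalized between arrays. Normalized log2 values of the same arrays come in a table deposited by the authors, made with Agilent Feature Extraction and limma per the submitters' processing notes. Its background correction and centring are not given in the sources used here, and its treatment labels oppose those of the scanner files in 12 of 12 columns over 13879 probes. It served as an alternative, under its own labels and with columns matched to arrays by correlation.

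From the scanner files, log2 of the processed intensity minus each array's 75th percentile over non-control spots was taken, outlier spots were dropped and spots of a probe averaged. Probes entered the tests if all 3 arrays of at least 1 group were well above background. Gene names came from RefSeq accessions (GRCz12tu annotation) for 25069 of 43603 probes. A gene took its probe with the highest mean over the 12 arrays. Limma 3.58.1 in R 4.3.3 fitted 4 group means to the 12 arrays (8 residual degrees of freedom), with Benjamini-Hochberg adjustment over 11940 genes and 13224 unnamed probes. The procedure was run on simulated data with independent noise for each gene and array. No slide effect, pairing of arrays or array of raised background was simulated, and the outcome is not given here. Other probes and the gap between probes were fitted in the same model.

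The members, gene lists and tests were chosen with earlier results of these data known. Genes named with array values are the 3 largest rises and falls called in each comparison, the largest call of each role and the tested immunoproteasome genes, plus those said to be named after their values were seen. Genes of the other lists are given as examples. Replicate numbers come from the sample titles. Same-numbered arrays of the 2 treatments deviated together at 72 hpf (correlations 0.50, 0.51 and 0.53) and not at 24 hpf (-0.09, 0.06 and -0.05). The main fit did not pair arrays by these numbers at either stage, and blocks by replicate number were alternatives only. Under the block within each stage, 1 of the 6 calls at 72 hpf was kept. Normexp used median spot signals (offset 50). No sequence of a promoter, protein or probe was used here. The number of arrays limits the precision.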

Additional observations from a re-analysis of the deposited data

Results flagged for a closer look

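The beclomethasone effect at 72 hpf minus that at 24 hpf was called (limma adjusted p below 0.05) for 10 listed genes outside the rule. It was called for 0 of the 53 proteasome genes and for 6.3% of all features. The 10 were 3 of 14 tested partners, 2 of 15 interferon and antigen presentation genes and 3 of 8 leukocyte markers. The rest were 1 of 5 receptor targets and 1 of 9 genes listed around the response that restores proteasome levels. No gene of the ubiquitin, lymphocyte or stage lists was called. The difference was positive for the proteasome-binding genes zfand5a (1.5), zfand5b (0.79) and ecpas (0.97) and for the chaperone gene hspa5 (0.53). It was negative for the antigen presentation gene b2m (-0.77), the interferon signalling gene stat1a (-0.75), the leukocyte genes lcp1 (-0.77), mpx (-0.65) and coro1a (-0.59) and the receptor target hsd11b2 (-0.80). For ecpas the change was 0.30 at 72 hpf and -0.68 at 24 hpf, and for hsd11b2 it was 3.13 at 72 hpf and 3.93 at 24 hpf. These values are those of the brightest probe. The difference was called with the same sign at every tested probe of zfand5a and hsd11b2, and stat1a has 1 probe. Of the other probes, 1 of 2 was called with the same sign in zfand5b and b2m, 1 of 5 in hspa5, and 0 in ecpas, lcp1, mpx and coro1a. The sign was opposite at both other probes of mpx (0.07 and 0.13) and at 2 of hspa5 (-0.13 and -0.20). Groups of 3 arrays were not searched for single outlying arrays.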

How the results depend on the processing

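Against 11 calls at 24 hpf, there were 18 after normexp and 18 with median centring, 7 without a filter on dim probes, 1 with slide as a block, 1 with only the arrays compared, and 18 with the dimmest probe of each gene (16 rises and 2 falls). Against 6 calls at 72 hpf, there was 1 without the filter, 1 with slide as a block, 2 with the median over a gene's probes, 1 with the dimmest probe and 3 with only the arrays compared. The difference between the stages gave 0 calls, against 8 after normexp, 1 with quantile normalization, 1 with median centring, 2 with the median over probes, 2 with the dimmest probe and 1 with the authors' table under either labelling. Slide as a block gave 24 stage calls in beclomethasone (against 42) and 24 in DMSO (against 41), and the dimmest probe gave 26 in beclomethasone and turned 21 of the 41 in DMSO. The dimmest probe and the replicate block within each stage were added after seeing the data. The shares of all features called under these alternatives, or with 1 array left out, are not given here. A change in the count of calls is therefore not shown to be particular to proteasome genes.

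With a replicate block 12 genes were called at 24 hpf, 4 at 72 hpf, 43 and 40 between the stages in beclomethasone and DMSO, and 0 for the difference. With the replicate block within each stage 11 were called at 24 hpf and 1 at 72 hpf. Leaving out 1 array gave 4 (without beclomethasone 24 hpf replicate 1 or 2) to 12 calls at 24 hpf, 1 to 7 at 72 hpf, 0 to 4 for the difference, 40 to 43 between the stages in beclomethasone and 37 to 42 in DMSO.

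Signs turned with the authors' table as labelled: at 24 hpf psma6b was -0.73, psmb5 0.31, psmb9a 0.19, psmc3 0.40, psmc3ip 0.28, psmd11a 0.39, psmd11b 0.34 and psme3 0.51, at 72 hpf psmb9a was 0.51, psmc3ip 0.71, psmd9 0.27 and psme3 0.42, and between the stages psmb10 was -0.052. With the dimmest probe psmb5 was 0.60 at 24 hpf and 0.47 between the stages in DMSO, and psmc3 was 0.53 at 24 hpf, 0.21 between the stages in beclomethasone and 0.72 in DMSO. With the median over probes psmc3 was 0.10 at 24 hpf and 0.014 between the stages in DMSO, and with quantile normalization psmb9a was 0.23 at 24 hpf. Other than by the alternative's own construction (other probes, fewer arrays, other labels), the cause of these changes was not tested. Dim genes are limited by the background of DMSO 24 hpf replicate 3.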
